A study of Mus musculus with 24 samples.

Results

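The 33 genes described here encode proteins of skeletal muscle, and they were measured in white fat pads of mice. They were picked by symbol from the 35275 genes of the deposited expression table, and all 33 were found there. By the fibre type in which each is best known, 13 were taken as fast fibre genes, 7 as slow fibre genes and 13 as genes of both fibre types. RNA had been sequenced from inguinal and gonadal adipose tissue of conditional adipose FoxO1 knockout mice and of floxed FoxO1 mice, which served as controls, and the stated purpose was to find genes and pathways regulated by FoxO1. The Cre line or promoter, the exons deleted, and the sex and age of the mice are not stated in the labels. The library names hold 6 mouse numbers (knockout mice M5, M9 and M12, control mice M6, M7 and M10), with 2 libraries from each of the 12 pads. The meaning of the library names was inferred, and the 2 libraries of a pad were averaged, so that the mouse is the replicate (n = 3 per genotype in each pad). Where nothing says how the mice were bred or pooled, p-values measure only the spread between these mice.

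Skeletal muscle fibres contract when calcium binds the troponin complex on actin filaments and lets myosin pull on them. Fast fibres carry their own isoforms of myosin, troponin and the calcium pump and rely more on glycolysis, while slow fibres carry other isoforms, several of them shared with heart muscle, and hold more myoglobin. White fat has no muscle fibres of its own.

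Foxo1 was measured at 4.12, 2.49 and 5.69 FPKM in knockout inguinal pads (M5, M9 and M12) against 19.7, 13.02 and 14.5 FPKM in control ones (M6, M7 and M10). In gonadal pads it was at 4.07, 4.46 and 4.01 FPKM in knockout mice against 13.6, 7.87 and 9.53 FPKM in controls, so every knockout pad was below every control pad of its depot. The limma adjusted p of Foxo1 was 0.129 in inguinal and 0.407 in gonadal fat. Totals of gene-assigned reads ran between 14953657 and 25438811 per library. FPKM counts reads per kilobase of gene, scaled by the library total. The adipocyte marker Adipoq, which encodes adiponectin, stood at 601 FPKM or more in every pad. Epididymal genes were not even across gonadal pads. The 12 epididymis markers summed to 8154 FPKM in the M12 knockout pad and to 2720 and 443 FPKM in the M10 and M6 control pads. In the M5, M9 and M7 gonadal pads they summed to 0.224, 0.985 and 1.11 FPKM.

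Promoters of 26 of the 33 genes were found in a RefSeq table (GRCm38.p6), each covering 250 bases before to 50 bases after a RefSeq start. The RefSeq start nearest to the gene start in the deposited table was taken. These starts lay 19987 bases apart for Tnni1, 7762 for Myl2, 407 for Tnnt1, 348 for Myl1, 233 for Tnnc2 and 217 for Myh4. For the other genes they lay 63 bases apart or less. The Tnnt1 window lies inside the gene span of the deposited table. Tnnt3, Tnni2, Actn3, Myoz1, Tcap, Sln and Neb are named only. The 6 promoters below belong to genes whose levels set the patterns that follow. Myh4, Mylpf, Acta1 and Ckm were high in the same pads, and Myl3 and Tnnt1 did not follow them. All are written in the direction of transcription, with matches to the E-box, CANNTG, the core bound by myogenic factors of the MyoD family, and to the MEF2 site in capitals.
Myh4 (chr11:67237562-67237861, plus strand): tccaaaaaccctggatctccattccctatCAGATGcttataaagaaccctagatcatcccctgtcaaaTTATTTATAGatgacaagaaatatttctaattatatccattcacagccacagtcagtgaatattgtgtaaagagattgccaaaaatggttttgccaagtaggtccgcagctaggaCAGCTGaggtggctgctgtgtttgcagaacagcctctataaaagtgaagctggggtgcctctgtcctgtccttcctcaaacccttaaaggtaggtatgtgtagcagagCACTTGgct
Mylpf (chr7:127211358-127211657, plus strand): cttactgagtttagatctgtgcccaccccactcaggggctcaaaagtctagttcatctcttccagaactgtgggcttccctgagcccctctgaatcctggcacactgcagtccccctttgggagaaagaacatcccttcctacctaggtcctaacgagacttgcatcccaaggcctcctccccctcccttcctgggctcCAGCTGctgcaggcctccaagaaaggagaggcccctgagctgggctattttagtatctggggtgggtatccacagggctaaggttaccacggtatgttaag
Acta1 (chr8:123894726-123895025, minus strand): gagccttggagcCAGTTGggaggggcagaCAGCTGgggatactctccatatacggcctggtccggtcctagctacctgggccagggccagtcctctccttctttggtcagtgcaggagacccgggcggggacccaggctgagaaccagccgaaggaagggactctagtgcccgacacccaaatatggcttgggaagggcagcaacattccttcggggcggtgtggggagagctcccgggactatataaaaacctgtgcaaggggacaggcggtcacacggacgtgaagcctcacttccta
Ckm (chr7:19410844-19411143, plus strand): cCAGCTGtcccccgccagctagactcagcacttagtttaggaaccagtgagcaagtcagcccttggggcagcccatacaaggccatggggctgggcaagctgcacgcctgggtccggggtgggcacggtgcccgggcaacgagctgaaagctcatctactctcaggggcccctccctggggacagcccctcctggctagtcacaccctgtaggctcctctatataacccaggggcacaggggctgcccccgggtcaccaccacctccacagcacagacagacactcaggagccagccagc
Myl3 (chr9:110763428-110763727, plus strand): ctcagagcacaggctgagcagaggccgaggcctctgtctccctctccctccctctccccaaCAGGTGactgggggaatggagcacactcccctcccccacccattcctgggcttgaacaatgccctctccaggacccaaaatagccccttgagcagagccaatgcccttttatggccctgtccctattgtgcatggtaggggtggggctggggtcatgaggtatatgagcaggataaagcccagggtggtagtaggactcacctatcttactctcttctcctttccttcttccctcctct
Tnnt1 (chr7:4515926-4516225, minus strand): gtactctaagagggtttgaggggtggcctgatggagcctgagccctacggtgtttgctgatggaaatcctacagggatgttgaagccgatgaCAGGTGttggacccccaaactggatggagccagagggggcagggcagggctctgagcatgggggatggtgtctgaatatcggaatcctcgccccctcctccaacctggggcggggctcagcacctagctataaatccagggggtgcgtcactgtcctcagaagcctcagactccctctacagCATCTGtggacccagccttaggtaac

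Each of these promoters held at least 1 E-box, and the MEF2 match was in the Myh4 promoter alone of the 6. Over the 26 promoters, 22 (84.62%) held an E-box on either strand, against 72.31% of the 32851 promoters in the RefSeq table. A MEF2 match stood in 5 of the 26 (19.23%), in 3 of 9 fast, 0 of 7 slow and 2 of 10 shared fibre genes, against 3.19% of all promoters. The E-box and MEF2 matches did not overlap. TATAAA was in 7 of the 26 (26.92%) against 13.62% of all promoters. A match is a description of these letters and not evidence of binding.

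Transcripts of the 33 genes, taken as a sum, were detected in all 12 pads, and in inguinal fat their amount differed widely between mice of the same genotype. Summed over the 33 genes, the level was 194.0, 544.6 and 81.0 FPKM in knockout inguinal pads (M5, M9 and M12) and 1049, 993.7 and 180.9 FPKM in control inguinal pads (M6, M7 and M10). In gonadal fat the sums were 41.8, 55.7 and 131.6 FPKM in knockout pads and 79.3, 47.3 and 55.2 FPKM in control pads. A sum does not mean that each gene was detected. In the M5 gonadal pad Myl1 (15.0 FPKM) and Eno3 (6.89 FPKM) gave a large part, while Myh4, Pvalb and Ckm had 0 reads. The M9 pad lay far above the other knockout inguinal pads, the M10 pad lay far below the other control ones, and the genotypes overlapped in both depots. In bulk tissue, fewer muscle cells and less RNA per muscle cell cannot be told apart. The 13 fast fibre genes gave 116.7, 335.3 and 60.1 FPKM of the sum in knockout inguinal pads and 612.1, 599.0 and 111.6 FPKM in control ones, the larger part of the sum in each inguinal pad. In gonadal fat the fast genes gave 21.0, 31.7 and 58.8 FPKM in knockout pads and 20.8, 17.4 and 18.4 FPKM in control pads. Myl1 alone made up much of the fast sum in the pads with little muscle RNA, such as 54.3 FPKM in the M12 inguinal pad. The 7 slow fibre genes gave only 4.51, 10.5 and 3.99 FPKM in knockout inguinal pads and 3.22, 5.52 and 2.43 FPKM in control ones. The slow genes thus stayed within a narrow range, 2.43 to 10.5 FPKM over all 12 pads.

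**Figure D1:**
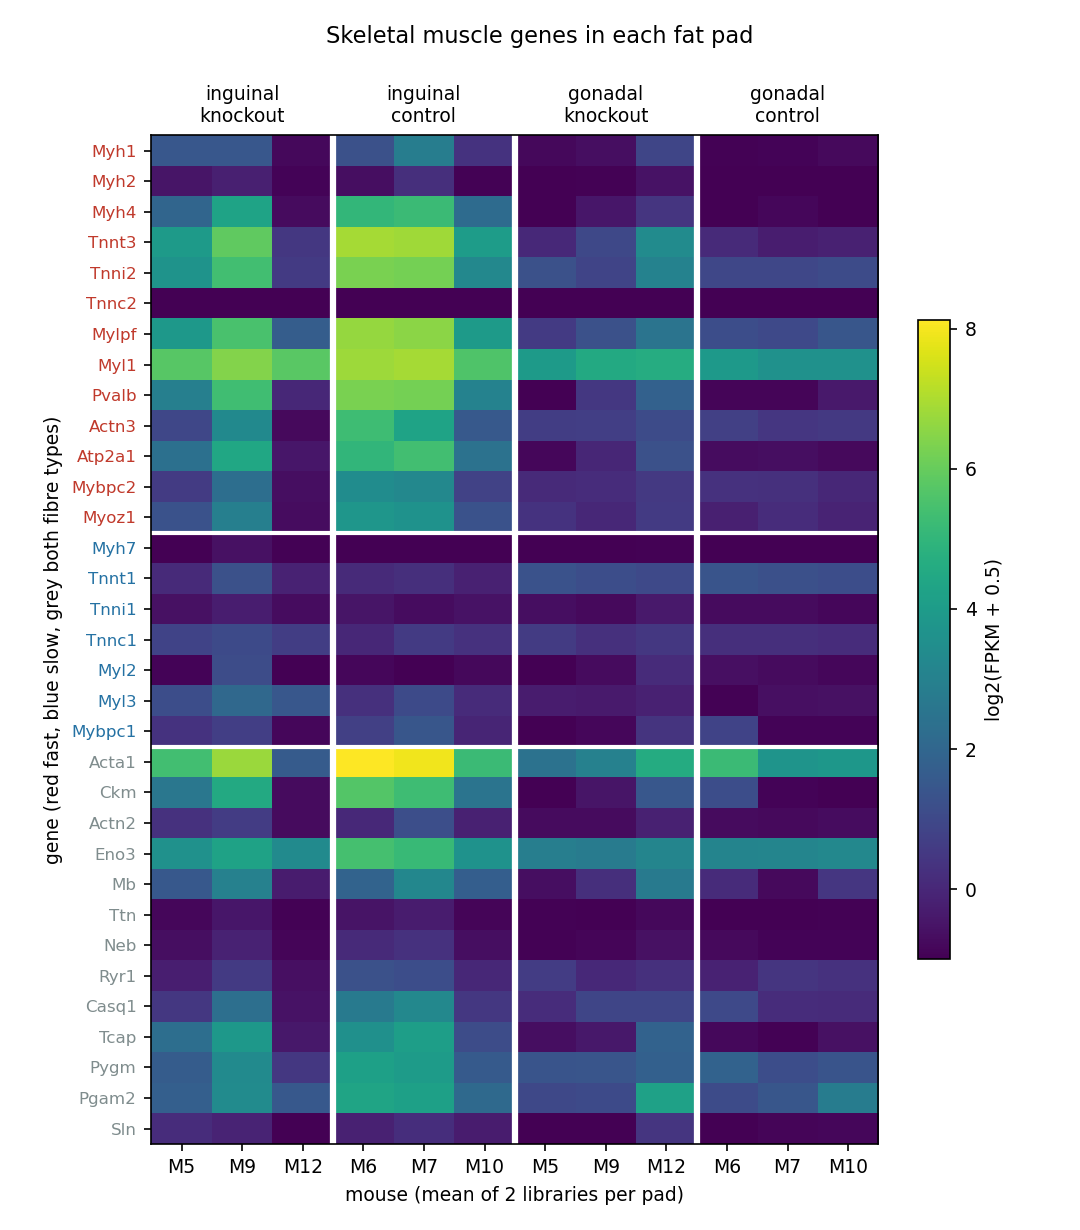
Level of each of the 33 muscle genes (rows, grouped as fast, slow and both fibre types) in each of the 12 pads (columns, by depot, genotype and mouse), as log2(FPKM + 0.5), the mean of 2 libraries. The M9, M6 and M7 inguinal pads are bright across the fast and shared rows, the slow rows stay dark in all pads, and Tnnc2 is at 0 throughout.

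Among the thin filament genes, Acta1, the skeletal alpha-actin (ENSMUSG00000031972, mm10 chromosome 8, 123891767 to 123894736, minus strand), reached the highest level of the 33. Acta1 stood at 40.5, 108.1 and 2.57 FPKM in knockout inguinal pads (M5, M9 and M12) and at 278.4, 242.2 and 36.6 FPKM in control ones (M6, M7 and M10). In gonadal pads Acta1 was at 4.95, 7.603 and 23.7 FPKM in knockout mice and at 36.6, 12.8 and 13.8 FPKM in controls. The M12 knockout mouse had more Acta1 in its gonadal pad than in its inguinal pad, which no other mouse did. Tnnt3, the fast troponin T that anchors the complex to tropomyosin (ENSMUSG00000061723, chromosome 7, 142498836 to 142516009, plus strand), was at 15.2, 59.0 and 0.880 FPKM in knockout inguinal pads and 118.0, 113.0 and 15.8 FPKM in control ones. In gonadal pads Tnnt3 was at 0.543, 1.45 and 10.1 FPKM in knockout mice, against 0.566, 0.336 and 0.403 FPKM in controls. Tnni2, the fast inhibitory troponin, was ordered alike except that M5 lay above M10, with 12.2, 40.9 and 0.953 FPKM in knockout inguinal pads and 77.2, 73.9 and 9.01 FPKM in control ones.

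Of the thick filament and calcium-handling genes of fast fibres, Myh4, Mylpf, Atp2a1 and Pvalb were also highest in the M6, M7 and M9 inguinal pads, and among inguinal pads lowest in M12. Myh1 and Myh2 did not keep that order, with 2.27 and 0.221 FPKM in the M5 knockout inguinal pad, above the 1.90 and 0.130 FPKM of the M6 control one. Myh4, the IIb myosin heavy chain of the fastest fibres (ENSMUSG00000057003, chromosome 11, 67238029 to 67260446, plus strand), was at 3.44, 19.2 and 0.0971 FPKM in knockout inguinal pads and 32.3, 37.1 and 4.04 FPKM in control ones. In gonadal pads Myh4 was at 0, 0.225 and 0.841 FPKM in knockout mice and at 0.0072, 0.0524 and 0.0042 FPKM in controls. Mylpf, the phosphorylatable fast light chain, was at 14.04, 45.2 and 2.73 FPKM in knockout inguinal pads and 101.8, 93.0 and 15.2 FPKM in control ones. In Mylpf, as in Myh4, M9 was the only knockout pad above the M10 control pad. Atp2a1, the fast calcium pump of the sarcoplasmic reticulum, was at 4.70, 21.2 and 0.236 FPKM in knockout inguinal pads and 31.4, 40.8 and 4.86 FPKM in control ones. Pvalb, the calcium buffer parvalbumin, was at 7.11, 39.2 and 0.512 FPKM in knockout inguinal pads and 77.6, 74.4 and 7.84 FPKM in control ones. Actn3, Mybpc2 and Myoz1, which encode the fast Z-disc actinin, the fast myosin-binding protein C and a calcineurin-binding Z-disc protein, peaked at 39.1, 10.3 and 13.4 FPKM, all in the M6 control inguinal pad.

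Of the genes of both fibre types, Ckm, the muscle creatine kinase, was at 5.58, 22.9 and 0.0963 FPKM in knockout inguinal pads and 50.4, 38.8 and 5.17 FPKM in control ones. Tcap, the telethonin that caps titin at the Z-disc, was at 4.38, 14.2 and 0.254 FPKM in knockout inguinal pads and 11.5, 16.9 and 1.68 FPKM in control ones. Pygm, the muscle glycogen phosphorylase, was at 2.64, 9.77 and 0.896 FPKM in knockout inguinal pads and 17.7, 15.4 and 2.53 FPKM in control ones. In each of these the M9, M6 and M7 inguinal pads were high and the M12 inguinal pad was the lowest of its depot. The giant filament genes Ttn (titin) and Neb (nebulin) peaked at 0.312 and 0.729 FPKM, and the calcium release and storage genes Ryr1 and Casq1 at 1.91 and 9.02 FPKM. Actn2, the Z-disc actinin of all fibres, and Sln, a regulator of the calcium pump, peaked at 1.80 and 0.836 FPKM. Of the 32 genes with reads, 13 were highest in the M6 inguinal pad, 12 in the M7 inguinal pad, 5 in the M9 inguinal pad, 1 in the M6 gonadal pad and 1 in the M12 gonadal pad.

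In control mice, inguinal fat held more fast fibre transcripts than gonadal fat, while the slow fibre genes were split. Genes with a mean of at least 0.5 FPKM were tested with limma on log2(FPKM + 0.5), a scale that understates the change of low genes, and a Benjamini-Hochberg adjusted p under 0.05 was called. Of the 33 genes, 25 passed the filter, 17 rose and 1 fell, while 14.5% of the 14505 genes tested were called higher and 26.9% lower. All 11 fast genes tested were called higher, led by Tnnt3 with a log2 fold change of 6.02 (SE 0.76, adjusted p 0.0021). Tnnt3 averaged 82.3 ± 57.6 FPKM in inguinal and 0.435 ± 0.119 FPKM in gonadal pads of control mice (SD, n = 3). Pvalb (5.91, SE 0.86), Myh4 (5.09, SE 0.79), Atp2a1 (4.98, SE 0.75) and Mylpf (4.53, SE 0.71) followed, with limma adjusted p of 0.0042 or less. The smallest log2 fold change among the fast genes was 2.30 (SE 0.70) for Mybpc2, with a limma adjusted p of 0.040. Of 10 tested genes of both fibre types, 5 rose: Ckm (log2 fold change 4.74), Tcap (3.71), Acta1 (2.82), Mb (2.36) and Eno3 (1.56). The other 5, Actn2, Ryr1, Casq1, Pygm and Pgam2, had log2 fold changes of 0.61 to 1.80 and did not pass in limma. DESeq2 on rebuilt reads called all 5 higher, beside 3270 of the 14505 genes. Of the 4 slow genes tested, Myl3 rose (log2 fold change 1.20, limma adjusted p 0.0205), Tnnt1 fell, and Tnnc1 (0.09) and Mybpc1 (1.03) did not pass. Myh2, Tnnc2, Myh7, Tnni1, Myl2, Ttn, Neb and Sln were below the filter. Of the 25 tested, 18 were higher in every inguinal than in any gonadal control pad and 1 was lower, against 20.2% and 38.7% of all genes tested.

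A gene that passes the filter only through the pads where it is high had to differ, so the comparison was also run without a filter. It then called 14 of 32 muscle genes higher, now with Sln but without Actn3, Acta1, Mybpc2 and Eno3, and 1 lower, while 7.81% of all genes were called higher and 14.8% lower. Without a filter the median log2 difference was 3.70 for the 12 fast genes with reads, 0.09 for the 7 slow genes, 1.75 for the 13 genes of both fibre types and -0.05 for all genes. The number of muscle genes called higher was 8 without the M6 mouse, 8 without M7 and 19 without M10, and without M10 the 1 lower gene, Tnnt1, no longer passed. Over all genes, these fits called 1788 of 14464, 1504 of 14676 and 445 of 14239 higher. With the mouse as a block, 16 muscle genes were called higher and 1 lower, and Eno3 no longer passed. The block called 1864 of all 14505 genes higher and 3228 lower. Rescaling by TMM factors moved the median log2 fold change of all tested genes to -0.03, against -0.18 without it. That gave 2843 genes called higher and 3072 lower, against 2106 and 3904 without it, and the same counts of 17 and 1 for muscle genes.

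In knockout mice the same depot comparison called 3 of 23 tested muscle genes higher and none lower, against a background of 12.7% higher and 35.1% lower of 14593 genes. The 3 were Myl1 (log2 fold change 1.60, SE 0.27), Myl3 (1.85, SE 0.26) and Eno3 (0.80, SE 0.24), with limma adjusted p of 0.0047, 0.0027 and 0.034. The share called higher is close to the background. Myl1, Tnnc1, Myl3 and Eno3 were higher in every inguinal than in any gonadal knockout pad, as were 16.6% of all genes tested. Eno3 did not pass with the mouse as a block or without a filter, which left 2 genes called in each, and without a filter 6.93% of all genes were called higher. Tnnt3 averaged 25.0 ± 30.3 FPKM in inguinal and 4.03 ± 5.26 FPKM in gonadal pads of knockout mice (SD, n = 3), a log2 fold change of 1.97 (SE 1.53) with a limma adjusted p of 0.325. Without the M12 mouse, whose gonadal pad was the richer in muscle genes, 14 muscle genes were called higher, and without M5 or without M9 there were 2. Without M9, Tnnt1 was also called lower. Over all genes, 1510 of 14026 were called higher without M12, 923 of 14780 without M5 and 1259 of 14817 without M9. Without M9, 2879 of all genes were called lower. TMM rescaling moved the median of all tested genes to -0.02, against -0.27 without it, and gave 3025 genes called higher and 2961 lower, against 1849 and 5122. It again called 3 muscle genes higher.

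**Figure D2:**
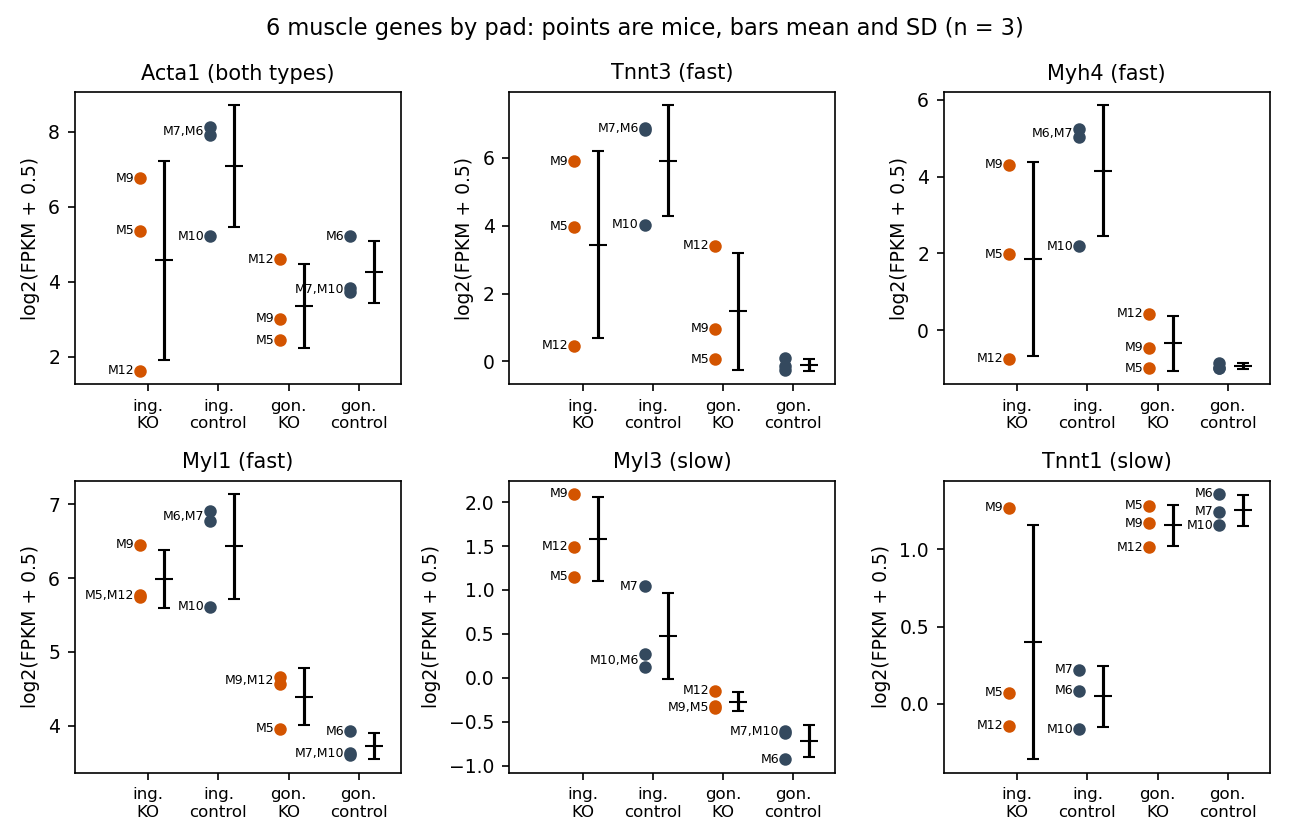
Levels of 6 muscle genes as log2(FPKM + 0.5) in inguinal and gonadal pads of knockout and control mice, with 1 point per mouse (mean of 2 libraries) and the mean with SD of 3 mice beside it. For Acta1, Tnnt3 and Myh4 the inguinal groups spread over several units and overlap between genotypes, Myl1 stays high in all pads, Myl3 is higher in all knockout than in all control inguinal pads, and Tnnt1 is lower in inguinal than in gonadal fat except in the M9 pad.

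Knockout inguinal pads held fewer fast fibre transcripts than control ones on average, but the mice of a genotype differed widely and no muscle gene passed the test. Of 25 muscle genes tested, limma called 0, edgeR 0 and DESeq2 0, while limma called 0.022%, edgeR 0.0147% and DESeq2 4.85% of 13621 genes. Their limma adjusted p ranged between 0.236 and 0.843. Without a filter the median log2 difference was -2.05 for the fast genes, 0.35 for the slow genes, -0.998 for the genes of both fibre types and -0.02 for all genes. All 12 fast genes with reads and all 13 genes of both fibre types lay below 0, and 6 of 7 slow genes lay above it. Tnnt3 had a mean of 25.0 ± 30.3 FPKM in knockout mice, against 82.3 ± 57.6 FPKM in control mice (SD, n = 3), a log2 fold change of -2.47 (SE 1.499, limma adjusted p 0.509). Acta1 had a mean of 50.4 ± 53.4 FPKM in knockout mice, against 185.8 ± 130.4 FPKM in control mice (SD, n = 3), a log2 fold change of -2.51 (SE 1.46, limma adjusted p 0.489). No fast gene separated the genotypes. The median over the 32 genes was -0.96 with all mice, -0.50 without M12, -0.60 without M7, -1.445 without M10 and -1.47 without M9. TMM rescaling moved the median of all tested genes to 0.00, against -0.10 without it.

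Slow genes Myl3 and Tnnc1 had the smallest unadjusted p of the muscle genes here and stood higher in every knockout inguinal pad than in any control one. Myl3, the slow ventricular essential light chain (ENSMUSG00000059741, chromosome 9, 110763646 to 110769804, plus strand), was at 1.72, 3.77 and 2.32 FPKM in knockout and at 0.710, 1.56 and 0.590 FPKM in control inguinal pads. Its log2 fold change was 1.10 (SE 0.34) with a limma p of 0.017 and an adjusted p of 0.236. Tnnc1, the calcium-binding troponin C of slow fibres and heart, was at 1.29, 1.59 and 1.07 FPKM in knockout and at 0.515, 0.982 and 0.727 FPKM in control inguinal pads. The log2 fold change of Tnnc1 was 0.56 (SE 0.20) with a limma p of 0.031 and an adjusted p of 0.284. These 2 of 25 genes compare with 3.29% of all genes at an unadjusted p under 0.05 in the higher direction, and with 5.28% whose groups do not overlap in that direction. The Myl3 values rest on 17 to 143 reads per pad and those of Tnnc1 on 15 to 46. The separation holds for pad means and not for single libraries. Tnnc1 was at 2.01 and 0.573 FPKM in the 2 libraries of the M5 pad, against 1.16 FPKM in the second M7 library. Myl3 was at 1.48 FPKM in the first M5 library, below the 1.64 FPKM of the second M7 library. In the authors' deposited table for inguinal fat, which lists 2220 of the 35275 genes as changed, Myl3 is the 1 muscle gene, with a log2 fold change of 0.88. That table holds read counts for each library, 2 per pad. Its headers do not say whether libraries or mice were the replicates.

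**Figure D3:**
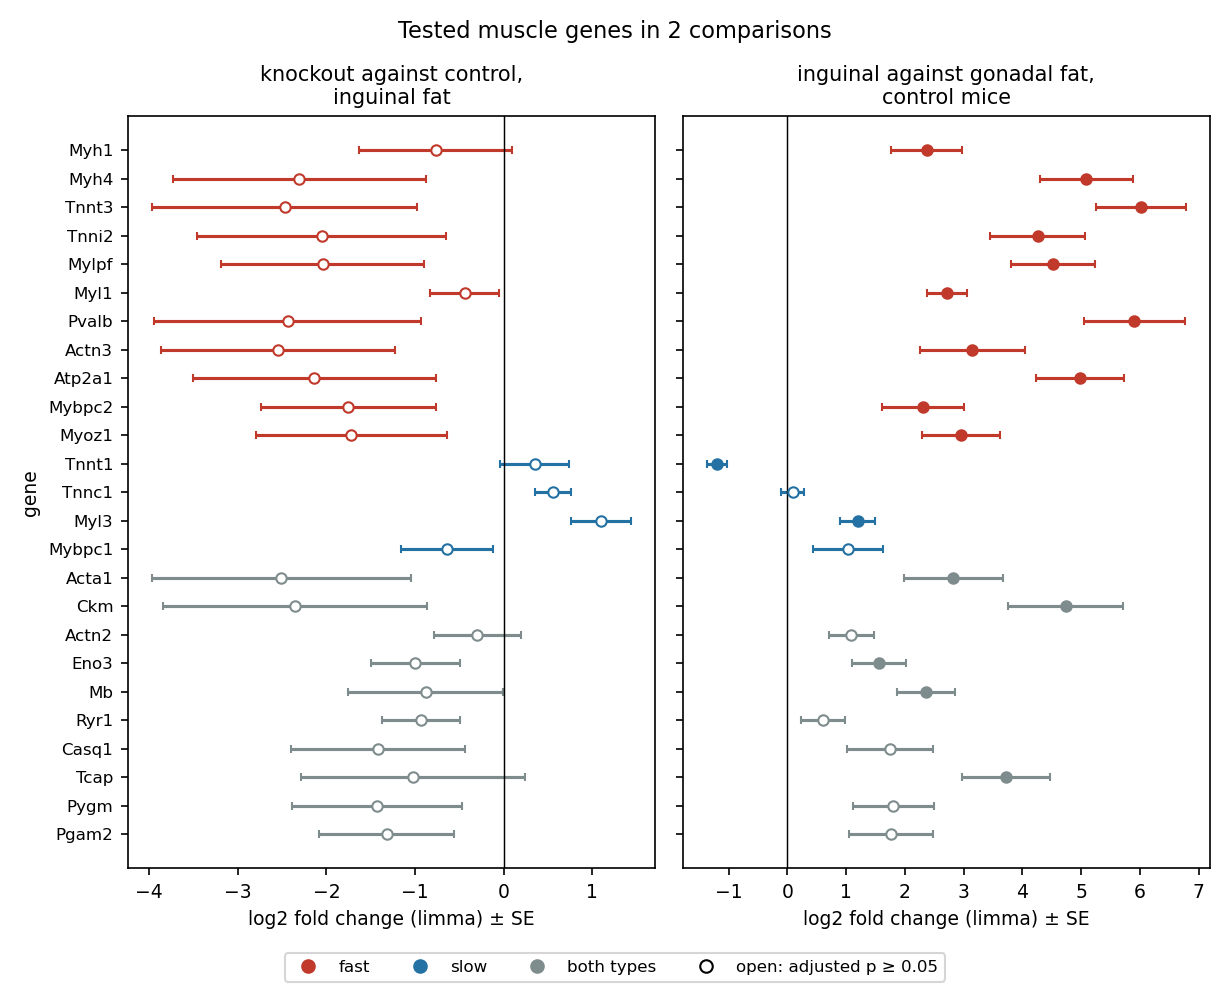
Log2 fold change with its SE from limma for each tested muscle gene, for knockout against control inguinal fat (left) and for inguinal against gonadal fat of control mice (right), coloured by fibre type. All symbols on the left are open, with fast genes at -0.44 to -2.55, while on the right all 11 fast genes are filled and the slow genes sit between -1.20 and 1.20.

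In gonadal fat, muscle genes of knockout mice lay slightly above those of controls, and none passed the test. Of 19 tested, limma called 0, edgeR 0 and DESeq2 0, while limma called 0.0%, edgeR 0.0% and DESeq2 2.11% of 14851 genes. Without a filter the median log2 difference was 0.23 over the 32 genes with reads, with 28 above 0 and 4 below, and it was 0.01 without the M12 mouse. Myl1 alone had an unadjusted limma p under 0.05, and 4.4% of all genes had one in the higher direction. Myl1, Tnnc1 and Myl3, the last below the filter, were higher in every knockout than in any control pad, as were 6.79% of the genes tested. Myl1 was at 15.0, 23.1 and 24.9 FPKM in knockout gonadal pads (M5, M9 and M12) and at 14.7, 11.7 and 11.8 FPKM in control ones (M6, M7 and M10). Its log2 fold change was 0.68 (SE 0.21, limma adjusted p 0.477). In the authors' deposited table for gonadal fat, 6 of the 33 muscle genes are among the 1808 of 35275 genes listed as changed: Tnnt3 (log2 fold change 0.97), Atp2a1 (0.81), Ttn (0.80), Myh1 (0.78), Myl1 (0.68) and Tcap (0.56). All 6 of these were highest in the M12 pad among the 6 gonadal pads. This table too holds read counts for each library and does not name the replicate, so its calls are not set against those with the mouse as replicate.

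The difference between the depots in the knockout effect was tested over all 12 pads. Of 24 muscle genes tested, limma called 0, edgeR 0 and DESeq2 0, while limma called 0.0%, edgeR 0.0% and DESeq2 0.11% of 14577 genes. The median log2 difference without a filter was -2.53 for fast, 0.32 for slow and -1.49 for shared fibre genes, and over all 32 genes it was -1.47, or -0.22 without M12. Myl1 was the 1 muscle gene with an unadjusted limma p under 0.05 (-1.12, SE 0.48, adjusted p 0.982), and 4.21% of all genes had one in the lower direction.

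Within a pad, fast and slow isoforms of the same protein can be set against each other. Of the summed troponin FPKM (Tnnt1 with Tnnt3, Tnni1 with Tnni2, Tnnc1 with Tnnc2), the slow isoforms made up 6.79%, 3.69% and 46.5% in knockout inguinal pads (M5, M9 and M12) and 0.659%, 0.936% and 4.97% in control ones (M6, M7 and M10). In gonadal pads they made up 55.8%, 47.5% and 13.1% in knockout mice and 59.0%, 60.0% and 54.1% in controls. The share was thus low where muscle genes were abundant and high where they were scarce. This relation is largely built in, because Tnnt3 and Tnni2 stand in the denominator and follow the muscle sum, while the slow genes stayed low in all pads. It does not by itself show a difference in fibre type. The pairs did not agree in gonadal fat. Tnni1 was at 0.0622 to 0.279 FPKM there and Tnni2 at 1.35 to 7.73 FPKM, with Tnni1 below Tnni2 in every pad. Tnnt1 was above Tnnt3 in every gonadal pad but M12. The high gonadal share thus rests on Tnnt1 and Tnnc1 and does not hold for the troponin I pair. Tnnc2, the fast troponin C, is listed at 0 everywhere, so the shares without the troponin C pair are 2.52%, 2.18% and 22.1% in knockout and 0.398%, 0.418% and 2.25% in control inguinal pads. The share of the M9 inguinal pad, 3.69%, lay above those of M6 and M7.

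The adult myosin heavy chain genes also differed in make-up between pads. Myh4 made up 58.0%, 87.1% and 43.8% of the summed FPKM of Myh4, Myh1, Myh2 and Myh7 in knockout inguinal pads (M5, M9 and M12) and 94.0%, 83.3% and 83.6% in control ones (M6, M7 and M10). Myh1, the IIx heavy chain, made up 38.3%, 10.4% and 35.1% in knockout and 5.55%, 15.1% and 15.9% in control inguinal pads. Myh2, the IIa heavy chain, made up 3.73% or less in inguinal pads except M12, where only 51 heavy chain reads were found. Myh7, the slow heavy chain, had 42 reads in the M9 inguinal pad and 4 or fewer in every other pad. The 95% exact binomial interval of the Myh4 share of reads was 29.3% to 57.8% in M12, 55.1% to 60.4% in M5 and 80.7% to 85.5% in M10, and such intervals cover counting error only. In gonadal fat, the M12 knockout pad held 586 heavy chain reads, with Myh1 at 56.9% and Myh4 at 34.7% of the FPKM. Its 2 libraries disagreed on Myh4, with 169 and 34 reads, so the Myh4 share of this pad is uncertain. The M9 knockout gonadal pad held 101 reads, with Myh4 at 61.7%. The other gonadal pads held 8 to 23 reads and allow no make-up to be read. The authors' handling of reads that match several heavy chains is not given, and 18.9% of 50-base stretches of the Myh4 transcript, 25.4% of Myh1 and 26.9% of Myh2 occur in another heavy chain transcript.

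**Figure D4:**
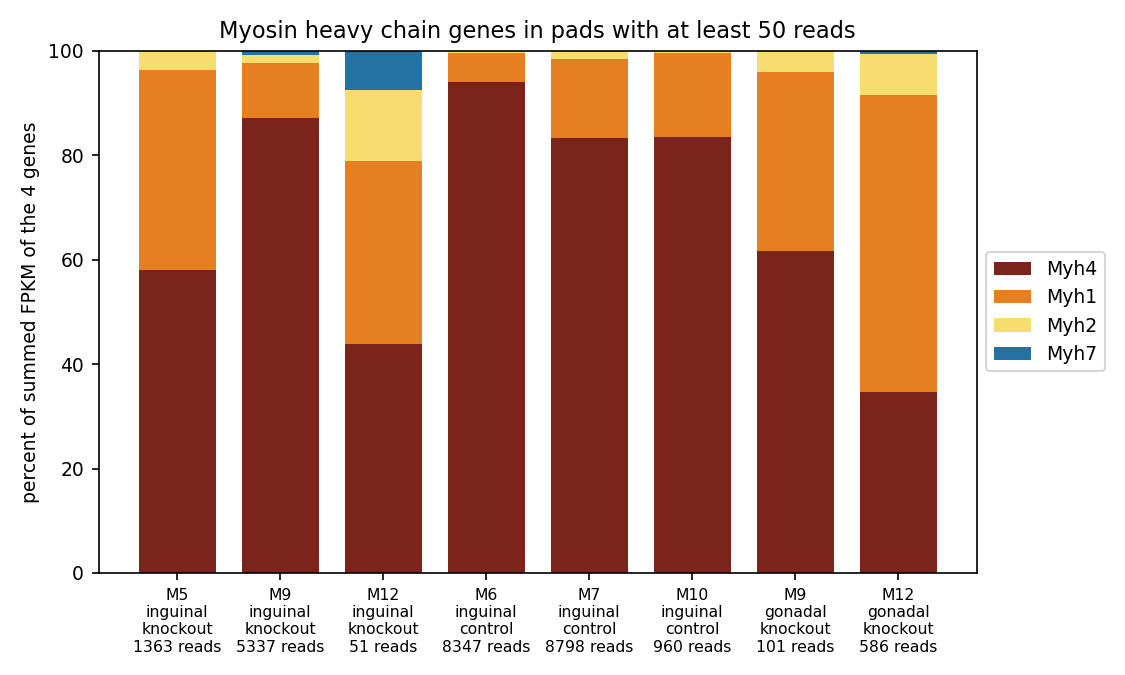
Share of Myh4, Myh1, Myh2 and Myh7 in their summed FPKM (percent) in the 8 pads with at least 50 heavy chain reads, with the number of reads under each bar. Myh4 is above 83% in the M9 knockout and all 3 control inguinal pads. Myh1 is the largest part in the M12 gonadal pad, whose libraries differ in Myh4.

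Pads with like amounts of muscle RNA still differed in make-up. The M6 and M7 control inguinal pads held Tnnt3 at 118.0 and 113.0 FPKM, but Myh1 at 1.90 and 6.74 FPKM, Actn3 at 39.1 and 18.9 FPKM, and Mb, the oxygen-binding myoglobin, at 3.25 and 8.92 FPKM. In the M9 knockout inguinal pad, 5 of the 7 slow fibre genes were at their highest, on 28 (Tnni1) to 143 (Myl3) reads. The lead was small for Tnnc1, with 46 reads against 35 in the M5 inguinal pad. It was small too for Tnni1, with 28 reads against 24 in the M12 gonadal pad. The share of all genes that were highest in the M9 inguinal pad was not counted. Myl2, the slow regulatory light chain, was at 1.65 FPKM in the M9 inguinal pad and at 0.600 FPKM or less in every other pad. Tnni1, the slow inhibitory troponin, was at 0.324 FPKM in M9 inguinal fat and at 0.0622 to 0.279 FPKM elsewhere. Mybpc1, the slow myosin-binding protein C, was at 0.752, 1.11 and 0.0613 FPKM in knockout and 1.15, 2.18 and 0.467 FPKM in control inguinal pads, an order close to that of the fast genes.

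A few genes differed less than the rest between muscle-rich and muscle-poor inguinal pads, or went the other way. Among them, Eno3 and Pgam2 kept the order of Tnnt3 across the inguinal pads, over a smaller range. The mean level in the muscle-rich M6 and M7 inguinal pads was 357 times that of the muscle-poor M12 inguinal pad for Myh4, 317 times for Actn3, 131 times for Tnnt3 and 101 times for Acta1. For Myl1, the essential light chain of fast fibres, the ratio was only 2.10, for Eno3, the muscle enolase, 3.94, and for Pgam2, the muscle phosphoglycerate mutase, 7.93. Myl1 was the most abundant fast gene in the M12 inguinal pad at 54.3 FPKM (2221 reads), where Tnnt3 was at 0.880 FPKM (36 reads). For slow genes the ratio was 1.514 for Tnni1, 1.505 for Tnnt1, 0.698 for Tnnc1, 0.518 for Myh7 (4 reads in M12) and 0.489 for Myl3, but 27.2 for Mybpc1. Tnnt1, the slow troponin T (ENSMUSG00000064179, chromosome 7, 4504570 to 4516382, minus strand), ran against the fast genes between depots. It was at 0.561, 0.666 and 0.394 FPKM in inguinal and at 2.06, 1.86 and 1.73 FPKM in gonadal pads of control mice (M6, M7 and M10), a log2 fold change of -1.20 (SE 0.17, limma adjusted p 0.0031). In knockout mice (M5, M9 and M12) Tnnt1 was at 0.551, 1.91 and 0.407 FPKM in inguinal and 1.93, 1.74 and 1.52 FPKM in gonadal pads, and the M9 inguinal pad overlapped the gonadal ones.

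Among gonadal pads, M12 of the knockout mice and M6 of the controls stood apart in different ways. The M12 pad held the fast genes (58.8 FPKM in sum, against 17.4 to 31.7 FPKM in the other 5 gonadal pads), Mb at 6.19 FPKM and Pgam2 at 18.2 FPKM, against 1.46 to 6.596 FPKM of Pgam2 in the other gonadal pads. It also held the epididymal genes given above, of which Lcn8 reached 2737 FPKM, and the smooth muscle actin Actg2 at 224 FPKM, against 0.165 to 43.9 FPKM in the other gonadal pads. The 2 libraries of the M12 gonadal pad gave Myh4 at 1.39 and 0.291 FPKM (169 and 34 reads), the widest ratio (4.78) among 176 gene and pad values with at least 100 reads, whose median ratio was 1.13. Their Myh1 values were 1.49 and 1.27 FPKM. The M6 pad held Acta1 at 36.6 FPKM, Ckm at 1.75 FPKM and Mybpc1 at 1.27 FPKM, but Tnnt3 at only 0.566 FPKM and Myh4 at 2 reads. The M6 gonadal pad was also the highest of all pads in the smooth muscle genes Acta2 (122 FPKM), Tagln (112 FPKM) and Myl9 (59.7 FPKM). Of the epididymal genes, it held Crisp1 at 442 FPKM. The part of epididymal or smooth muscle tissue in these values was not tested.

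Other genes of muscle were read from lists that exclude the 33. The counts called in each list stand beside 14.5% of all genes higher and 26.9% lower in inguinal fat of control mice, and 12.7% higher and 35.1% lower in knockout mice. Between the depots of control mice, 5 of 13 tested sarcomere and Z-disc genes rose and 1 fell, with a median log2 fold change of 0.95 over those tested. Of these, Cryab, a small heat shock protein of the Z-disc that other tissues also make, rose by 0.95 and Myom3, an M-band protein, by 1.32, while the tropomyosin gene Tpm3 fell by 1.24 on the log2 scale (limma adjusted p 0.0079 or less). Excitation-contraction coupling genes had 2 of 12 higher, near the share over all genes, and 1 lower, the lower being the slow and general calcium pump Atp2a2 (-0.62, SE 0.10, limma adjusted p 0.0044). Muscle energy genes had 8 of 12 higher and 1 lower, among them the glucose transporter Slc2a4 (1.91, SE 0.17), which adipocytes also express. Neuromuscular junction genes had 0 of 4 higher and 1 lower, Lrp4. Of the myogenic regulators, Myf6, a factor of mature fibres, was below the filter at 0.105, 0.139 and 0 FPKM in knockout and 0.417, 0.513 and 0.0710 FPKM in control inguinal pads. Of the developmental myosins 1 of 3 was tested and none was called, with Myh3 and Myh8 at 0.097 FPKM or less in every pad. In knockout mice the sarcomere list had 2 of 7 tested genes higher and 1 lower in inguinal fat, the coupling list 1 of 9 higher and 2 lower, and the energy list 7 of 11 higher and 1 lower. The junction list had 0 of 4 higher and 1 lower there. In both comparisons of knockout with control, limma called 0 members of each of these 6 lists. It called only 0.0% of 14851 genes in gonadal and 0.022% of 13621 genes in inguinal fat, so these zeros say little about the lists.

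Markers of other tissues moved with the muscle genes only in part. Peripheral nerve genes were higher in inguinal fat in both genotypes, with 6 of 8 tested called higher and 1 lower in each. Their summed level was 172 to 228 FPKM in knockout and 148 to 233 FPKM in control inguinal pads, and 112 to 126 FPKM in knockout and 99.0 to 111 FPKM in control gonadal pads. Brown and beige fat genes, some of which muscle shares, had 7 of 8 tested higher in inguinal fat of control mice, yet the muscle-rich M6 pad was the lowest inguinal pad in Cox8b, at 183 FPKM against 622 FPKM or more in the others. The B cell gene Cd79a was at 1.503 FPKM in the M9 and 1.26 FPKM in the M7 inguinal pad, both rich in muscle genes, but at 115 FPKM in the M6 pad. Of the heart markers, 1 of 9 passed the filter in any comparison, none was called between depots of control mice, and the list summed to 0.745 to 5.01 FPKM per pad. Epididymis markers summed to 0.423 FPKM or less in every inguinal pad. In inguinal against gonadal fat of control mice, where limma called 14.5% of all genes higher and 26.9% lower, it called 9 of 10 adipocyte genes higher, 3 of 9 tested smooth muscle genes lower (near the share over all genes), 5 of 8 skin and mammary epithelium genes lower and 2 of 3 muscle stem and tendon genes lower. It called 1 of 7 epididymis genes lower there and 0 of 10 lymphocyte genes. No gene of these lists was called between knockout and control in either depot, where limma called 0.0% of all genes in gonadal and 0.022% in inguinal fat. The part of nerve or other tissues in the muscle values was not tested.

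Tnnc2, the fast troponin C (ENSMUSG00000017300, chromosome 2, 164777161 to 164779967, minus strand), had 0 reads in all 24 libraries, while its partners Tnnt3 and Tnni2 reached 5138 and 2789 reads in the M6 inguinal pad. In the GENCODE M21 annotation of GRCm38, 592 of its 800 exon bases (74.0%) lie under exons of Ube2c on the opposite strand. Ube2c, a ubiquitin-conjugating enzyme named here after its values were seen, was at 3.48, 2.42 and 3.46 FPKM in knockout and 3.93, 2.42 and 3.26 FPKM in control inguinal pads, with no excess in the muscle-rich ones. The cause of the 0 for Tnnc2 was not tested. It is taken here as a listed value and not as a measured absence. Without a stated strand setting, genes with overlapping neighbours are also uncertain, namely Atp2a1 (21.9% of exon bases shared with Rabep2), Ckm (15.5% with A930016O22Rik), Myh1 (8.1%) and Casq1 (8.0%), and Mb (27.6% with a gene model that the deposited table does not list by name).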

How the data were processed

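Per the labels' protocols, RNeasy columns were used for total RNA and a NEBNext Ultra kit for libraries. CASAVA, STAR and the build mm10 are named in the submitters' processing notes, with no tool versions, and neither a counting tool nor a strand setting is stated. Per the file headers, the main deposited table holds 35275 genes with an FPKM in each of 24 libraries. A comparison table for each depot lists changed genes only, with the authors' read counts, a scaled signal averaged over each group, a log2 fold change and a p-value. Their 24 FPKM columns were not used.

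Library names were read as z for knockout and f for floxed control, e for the gonadal and s for the inguinal pad. The 33 genes, the gene lists and the tests were chosen with earlier results of these data known. Both libraries of a pad were averaged by FPKM, and 3 mice were compared with 3 in two-sided tests by limma 3.58.1 with a trend (R 4.3.3), on log2(FPKM + 0.5) for genes with a mean of at least 0.5 FPKM, with Benjamini-Hochberg adjustment over all genes tested. The fits were tested on simulated data. Library totals were read off the count and FPKM of listed genes with 50 or more reads, and with them 100.0% of FPKM values came back as whole reads (tolerance 0.01). These counts, rebuilt from the deposited FPKM and summed per pad, were tested with edgeR 4.0.16 and DESeq2 1.42.0.

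The 2 pads of a mouse share its animal number, so depot comparisons were also fitted with the mouse as a block. Deviations of the 2 pads from their group means correlated across 14577 genes at r = -0.095 (M12) to 0.136 (M5). Of the 15 other lists, all genes of which were found, at most the 4 genes with the highest mean FPKM are named. Other alternatives were pseudocounts, filters, TMM scaling, single libraries and leaving out each mouse. Some genes of the other lists are not reported here.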

Additional observations from a re-analysis of the deposited data

How the results depend on the processing

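The number of muscle genes called changed most with the mice and with what counts as a replicate. With each library as a replicate, knockout against control called 1 gene higher in gonadal fat (Myl1) and 1 higher in inguinal fat (Myl3), against 0 and 0 with the mouse as replicate. In that fit limma called 569 genes of the whole table higher and 556 lower in gonadal fat, against 0 and 0, and 486 higher and 1703 lower in inguinal fat, against 0 and 3, but the libraries of a pad share their mouse. DESeq2 called 205 genes of the whole table higher and 108 lower in gonadal fat and 234 higher and 427 lower in inguinal fat. For inguinal against gonadal fat of knockout mice, each library as a replicate gave 5 muscle genes higher and 1 lower, against 3 and 0, and DESeq2 gave 5 higher. Over all 14593 genes, each library as a replicate gave 2631 higher and 7146 lower, and DESeq2 gave 3497 higher. With a mean of at least 2 FPKM, 0 muscle genes were lower in inguinal fat of control mice, since Tnnt1 was then not tested.

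Leaving out each mouse gave 8 to 19 muscle genes higher and 0 to 1 lower between depots of control mice, and 2 to 14 higher and 0 to 1 lower in knockout mice. Over all genes it gave 445 to 1788 higher and 1089 to 3469 lower in control mice. In knockout mice it gave 923 to 1510 of all genes higher and 2124 to 4401 lower. It gave 0 muscle genes in every knockout comparison and in the difference between depots. The median log2 difference then ranged between 0.01 and 0.38 (gonadal) and between -1.47 and -0.50 (inguinal) for knockout against control, between 1.31 and 2.74 for depots of control mice, between -0.01 (without M9) and 1.45 for depots of knockout mice, and between -2.19 and -0.22 for the difference between depots. The filters, edgeR and DESeq2 give no such median.

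With the mouse as a replicate block, the depot comparison called 16 muscle genes higher and 1 lower in control mice and 2 higher in knockout mice, and the difference between depots called 0. Over all genes the block called 1864 of 14505 higher in control mice and 1674 of 14593 in knockout mice. Eno3 was the gene lost in each, and the block changed no other call. Knockout and control mice are different animals, so knockout against control was not paired. The library names carry none of the labels' replicate numbers.

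The median slow troponin share of the 6 gonadal pads was 54.95%, but 78.27% as the median of the 3 pair shares and 13.28% with all slow over all slow and fast genes. With Tnnc2 at 0, the troponin C pair is all slow in every pad. The median of the 3 pair shares is then the larger of the troponin T and troponin I shares and cannot show the smaller. Without the troponin C pair, an alternative chosen after seeing the data, the median slow troponin share was 46.23%. Of 21 calls for single genes, 5 were lost without a filter, 1 with DESeq2 and 0 with TMM scaling or edgeR. Calls were also gained: against 17 muscle genes higher in inguinal fat of control mice, edgeR called 20, DESeq2 21 (adding Actn2, Casq1, Pgam2, Pygm and Ryr1, and losing Ckm) and each library as a replicate 22. Over all 14505 genes tested, these 3 called 2841, 3270 and 3069 higher, against 2106. The gonadal Myh4 share rests on few reads.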
